A study of Mus musculus and Mus musculus musculus x Mus musculus castaneus with 52 samples.

Results

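The immediate-early genes examined here are Fos, Fosb, Jun, Junb, Egr1, Atf3, Ier2, Ier3 and Zfp36. They were chosen by name, with earlier results of these data known, as 9 of the 16687 gene rows of a table of transcript levels in mouse pluripotent stem cells. All 9 had a mean of at least 1 CPM (read counts scaled to the library total) in every fit. Immediate-early genes are transcribed within minutes of a stimulus, from factors already present in the cell, so their induction needs no new protein. The kinase ERK acts on them through ternary complex factors such as Elk1, which sit with serum response factor on CArG boxes. The kinases p38 and JNK and the factor CREB feed into the same promoters. Fos and Fosb pair with Jun or Junb to form the transcription factor AP-1, Egr1 is a zinc-finger factor, and Atf3 is a stress-responsive factor of the ATF family that can also pair with Jun. Ier2 encodes a nuclear protein, Ier3 a protein linked to cell survival and ERK signalling, and Zfp36 tristetraprolin, which binds AU-rich elements of messenger RNAs and hastens their decay. These transcripts are also known to rise when living cells are handled or change medium.

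The study read poly(A) RNA of lines that differ in sex chromosomes, passage and Dusp9 genotype. Each line and condition has 1 column of values, called a library here, 24 in all. The iPSCs (cells reprogrammed to pluripotency) were 3 female WT lines (LV20, LV21 and LV22) and 3 male WT lines (LV4, LV8 and LV16) of Mus musculus, each at passage 7 and at passage 13. The series names the female lines XX at the early and XO at the late passage, and they are called XX lines at both here. The ESCs at passage 5 were the WT lines CM1 and CM2 (XX) and CM3 and CM7 (XY), from crosses of musculus with castaneus mice. A second ESC experiment, grown with serum and LIF but without feeder cells, sampled the WT XX line F121 and 2 female clones labelled Dusp9+/-, of the same kind of cross, and the WT XY line V6.5 of Mus musculus. Each was taken with LIF, the cytokine that maintains mouse ESCs, and after 24 h without it in medium with serum (0 h and 24 h). Dusp9 encodes an X-linked phosphatase that inactivates ERK. F121 and V6.5 each gave 1 library per time. The labels also list a technical repeat for each line and time of this experiment, and whether repeats were combined is not stated.

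The bases just before the transcription starts of 4 members are shown because these genes carry the changes described below and hold letters of the factors named above. RefSeq start windows (assembly GRCm38.p6, from 250 bases before to 50 bases after the start) were found for 7 of the 9 members, not for Egr1 or Ier2. In the sequences, the last base lies directly before the start, positions count back from it as -1, and capitals mark a motif found by letter search. Fos, which lies at chr12:85473890-85477274, shows a CRE-like TGACGT at -66 to -61 and a TATAAA at -33 to -28. Jun, at chr4:95049036-95052222, shows TGACATCA, an AP-1 and ATF type motif, at -45 to -38.
Fos (chr12:85473770-85473889, plus strand): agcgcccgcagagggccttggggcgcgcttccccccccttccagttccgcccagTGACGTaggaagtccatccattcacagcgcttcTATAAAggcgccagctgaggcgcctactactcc
Jun (chr4:95052223-95052342, minus strand): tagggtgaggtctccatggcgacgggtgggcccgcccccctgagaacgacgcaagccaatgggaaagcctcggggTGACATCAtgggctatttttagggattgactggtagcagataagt
Atf3, at chr1:191170296-191183333, shows the CRE-like motif on the other strand at -8 to -3. Zfp36, at chr7:28376784-28379228, shows a CArG box at -58 to -49, the Egr motif GCGGGGGCG at -105 to -97 and the STAT motif TTCNNNGAA at -17 to -9.
Atf3 (chr1:191183334-191183453, minus strand): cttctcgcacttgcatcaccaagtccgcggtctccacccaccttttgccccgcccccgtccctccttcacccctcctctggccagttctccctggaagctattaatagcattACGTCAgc
Zfp36 (chr7:28379229-28379348, minus strand): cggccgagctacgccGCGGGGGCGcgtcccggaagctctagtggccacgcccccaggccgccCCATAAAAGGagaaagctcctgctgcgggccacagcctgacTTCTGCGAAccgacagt
Of the 7 windows 2 held TGACGT (Fos and Atf3), against 7.51% of 32851 RefSeq windows. The Egr motif was in 2 (Fosb and Zfp36, 2.91% of all windows) and TATAAA, searched on the gene's own strand, in 2 (Fos, and Junb just after its start, 8.32%). TGACATCA was in Jun alone (3.62%), and the CArG box (1.63%) and the STAT motif (8.3%) were in Zfp36 alone. The other motifs were searched on both strands. The full CRE TGACGTCA, which contains TGACGT (1.79% of windows), and the AP-1 site TGACTCA (5.2%) were in none of the 7 windows. The Fosb window is counted but not shown, since its start lies inside the annotated bounds of the gene (chr7:19302696-19310118). Bases further upstream, and the starts of Egr1 and Ier2, were not searched, so a motif absent here may lie there. These matches describe letters, and binding was not measured here.

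The libraries held 8309171 to 14245900 reads recovered from the table, and values are log2 CPM with a floor of -2.45. Pluripotent cell markers were present in every library, with a summed level of 2551 to 4904 CPM over 10 markers and none at 0 throughout a group. The 20 fibroblast and feeder markers summed to 209.5 to 2378 CPM, and among them Lum in V6.5 at 24 h was the one gene at 0 in a group. The median of X-linked minus autosomal genes was -0.27 log2 in LV21 at passage 7, against 0.36 in LV20 and 0.46 in LV22, and -0.26 in LV22 at passage 13, against -0.66 in LV20 and -0.75 in LV21. LV21 at passage 7 and LV22 at passage 13 thus stood apart from the libraries of the same label. Dusp9 itself read 5.96 and 7.43 log2 CPM in the clone libraries at 0 h, against 6.93 in F121, and 7.71 and 6.58 at 24 h, against 7.84. One clone library at 0 h was above its WT counterpart, so the groups are given as libraries labelled Dusp9+/-. Clone number 1 held the lower Dusp9 value at 0 h and number 2 the lower at 24 h, and since the numbers may not match between the times, no change is given for a single clone. In bulk RNA, fewer cells expressing a gene and less RNA of it per cell cannot be told apart.

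Across the 24 libraries Fosb spanned 10.28 log2 units, from -0.72 in F121 at 24 h to 9.56 in LV8 at passage 7, and Fos spanned 8.83, from 0.79 in V6.5 at 24 h to 9.62 in LV8 at passage 7. Jun spanned 5.54 units, Junb 5.32, Egr1 4.71 and Atf3 4.64. The narrowest spans were those of Ier3 (2.83), Zfp36 (2.56) and Ier2 (2.4). The AP-1 subunits thus covered the widest range and the nuclear factor Ier2 the narrowest.

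**Figure D1:**
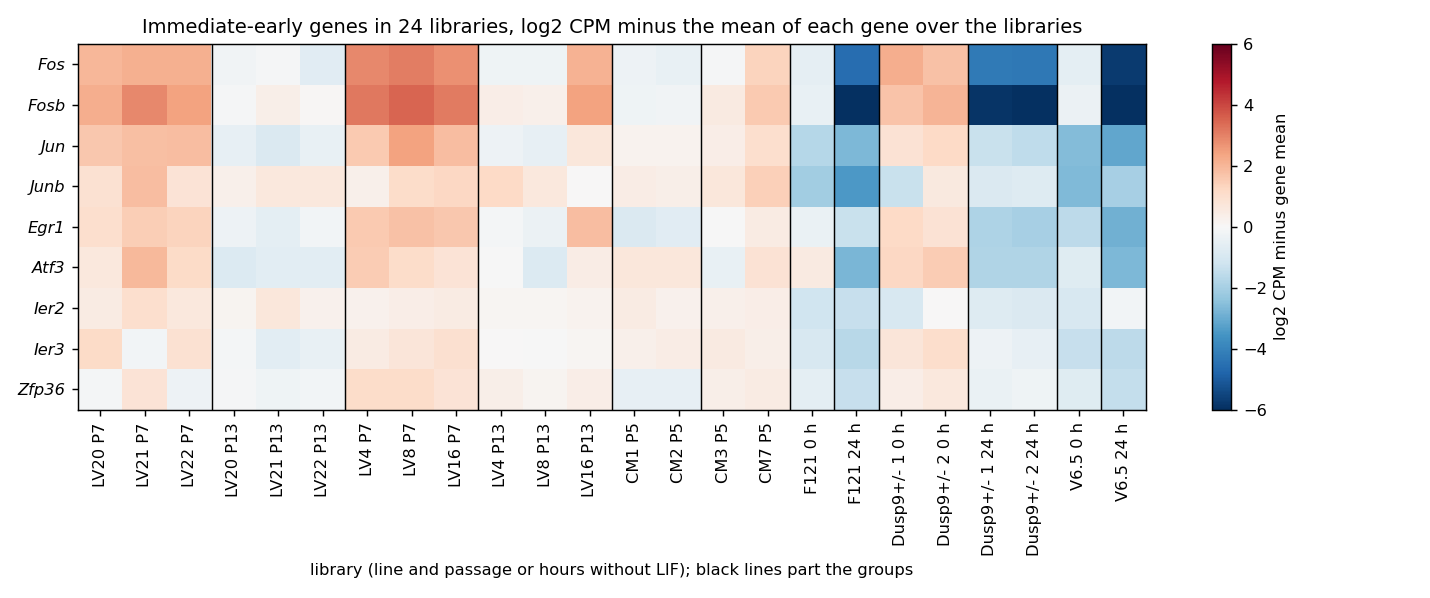
Log2 CPM of the 9 immediate-early genes (rows) in 24 libraries (columns), minus the mean of each gene over the libraries; red is above and blue below that mean, and black lines part the groups. Fos and Fosb are high in all libraries of passage 7, near their means in those of passage 13 except LV16, and lowest at 24 h without LIF.

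The order of Fos levels over the groups was as follows. The XY iPSC lines at passage 7 stood highest, at 9.44 ± 0.18 log2 CPM (SD, n = 3), followed by the XX lines at passage 7 at 8.62 ± 0.1 (SD, n = 3) and the libraries labelled Dusp9+/- at 0 h at 8.49 ± 0.3 (SD, n = 2). Libraries of the latter pair of groups overlapped. The XY CM lines came next at 7.15 ± 1.0 (SD, n = 2), then the XY iPSC lines at passage 13 at 7.07 ± 1.36 (SD, n = 3), the XX lines at passage 13 at 6.23 ± 0.31 (SD, n = 3) and the XX CM lines at 6.17 ± 0.1 (SD, n = 2). F121 at 6.02 and V6.5 at 5.94, both at 0 h, closed this middle range. From the XY CM lines down to the XX CM lines, each group's range overlapped that of the next, and F121 and V6.5 lay within the range of the XX lines at passage 13. At 24 h the libraries labelled Dusp9+/- stood at 2.28 ± 0.01 (SD, n = 2), F121 at 1.97 and V6.5 at 0.79. A gap of over 3 log2 units without any library therefore parted the 24 h libraries from all others.

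With passage, transcripts of 8 of the 9 immediate-early genes fell, over the mean of the XX and XY changes, and none rose. Fos fell 5.19-fold, Fosb 4.92-fold, Jun 4.49-fold, Atf3 3.05-fold and Egr1 2.65-fold, while Ier3, Zfp36 and Ier2 fell 1.83-fold, 1.42-fold and 1.24-fold. Of 13978 genes tested, 12.7% were called lower and 13.1% higher at passage 13. As the members were chosen with earlier results of these data known, the count of 8 in 9 is a description and no test against that share. The median change of the 9 was -1.41 log2, against 0 over all genes tested. A gene is called where limma's adjusted p is under 0.05.

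Jun, a partner of Fos proteins in AP-1, stood at 7.59, 7.77 and 7.84 log2 CPM in LV20, LV21 and LV22 at passage 7, and at 5.48, 5.1 and 5.55 at passage 13. In the XY lines it stood at 7.55, 8.38 and 7.84 in LV4, LV8 and LV16 at passage 7, and at 5.67, 5.48 and 6.68 at passage 13. All 6 lines were lower at passage 13 and the passages did not overlap. The change was -2.17 ± 0.18 log2 (SE, limma, adjusted p = 4.31e-05).

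Fos stood at 8.51, 8.69 and 8.66 log2 CPM in LV20, LV21 and LV22 at passage 7 and at 6.34, 6.47 and 5.88 at passage 13. In LV4, LV8 and LV16 it went from 9.43, 9.62 and 9.26 to 6.3, 6.28 and 8.64. LV16 at passage 13 thus lay within the range of all passage 7 lines, though below that of the XY lines, while the other 5 lines lay far below it. The change was -2.38 ± 0.31 log2 (SE, limma, adjusted p = 0.000275). Fosb, the other Fos family member, went from 8.25, 8.98 and 8.5 to 6.03, 6.44 and 6.14 in the XX lines, and from 9.26, 9.56 and 9.2 to 6.5, 6.36 and 8.5 in LV4, LV8 and LV16. Again LV16 alone lay within the passage 7 range of all lines. The change was -2.3 ± 0.28 log2 (SE, limma, adjusted p = 0.000209).

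Egr1 went from 8.67, 9.15 and 9.02 log2 CPM to 7.35, 7.11 and 7.51 in LV20, LV21 and LV22. In LV4 and LV8 it went from 9.23 and 9.45 to 7.54 and 7.34, and in LV16 from 9.27 to 9.51. LV16 at passage 13 was therefore the highest Egr1 library of all 24. The change was -1.41 ± 0.27 log2 (SE, limma, adjusted p = 0.00243). Atf3 went from between 4.9 and 6.18 at passage 7 to between 3.42 and 4.69 at passage 13, with no overlap and with LV16 the highest at passage 13. Its change was -1.61 ± 0.23 log2 (SE, limma, adjusted p = 0.00044).

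The remaining members moved less and their passages overlapped. Ier3 changed by -0.87 ± 0.2 log2 (SE, adjusted p = 0.00731). Zfp36 changed by -0.5 ± 0.15 (SE, adjusted p = 0.0256), a call lost without LV4 at passage 7 (adjusted p = 0.0538), LV8 at passage 7 (0.0648) or LV8 at passage 13 (0.0638). Ier2 changed by -0.31 ± 0.1 (SE, adjusted p = 0.0408). That call was lost in 8 of 12 fits that left out a library, with adjusted p of up to 0.102, and was kept without LV20 or LV4 at passage 7, or without LV21 or LV16 at passage 13. Junb, at -0.48 ± 0.22 (SE, adjusted p = 0.122), did not pass, although it passed without LV4 at passage 7 (-0.63, adjusted p = 0.0485). Calls of Fos, Fosb, Jun, Egr1, Atf3 and Ier3 were kept whichever library was left out. Without LV16 at both passages, or without LV21 at passage 7 and LV22 at passage 13, 7 members were called, Ier2 being lost.

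**Figure D2:**
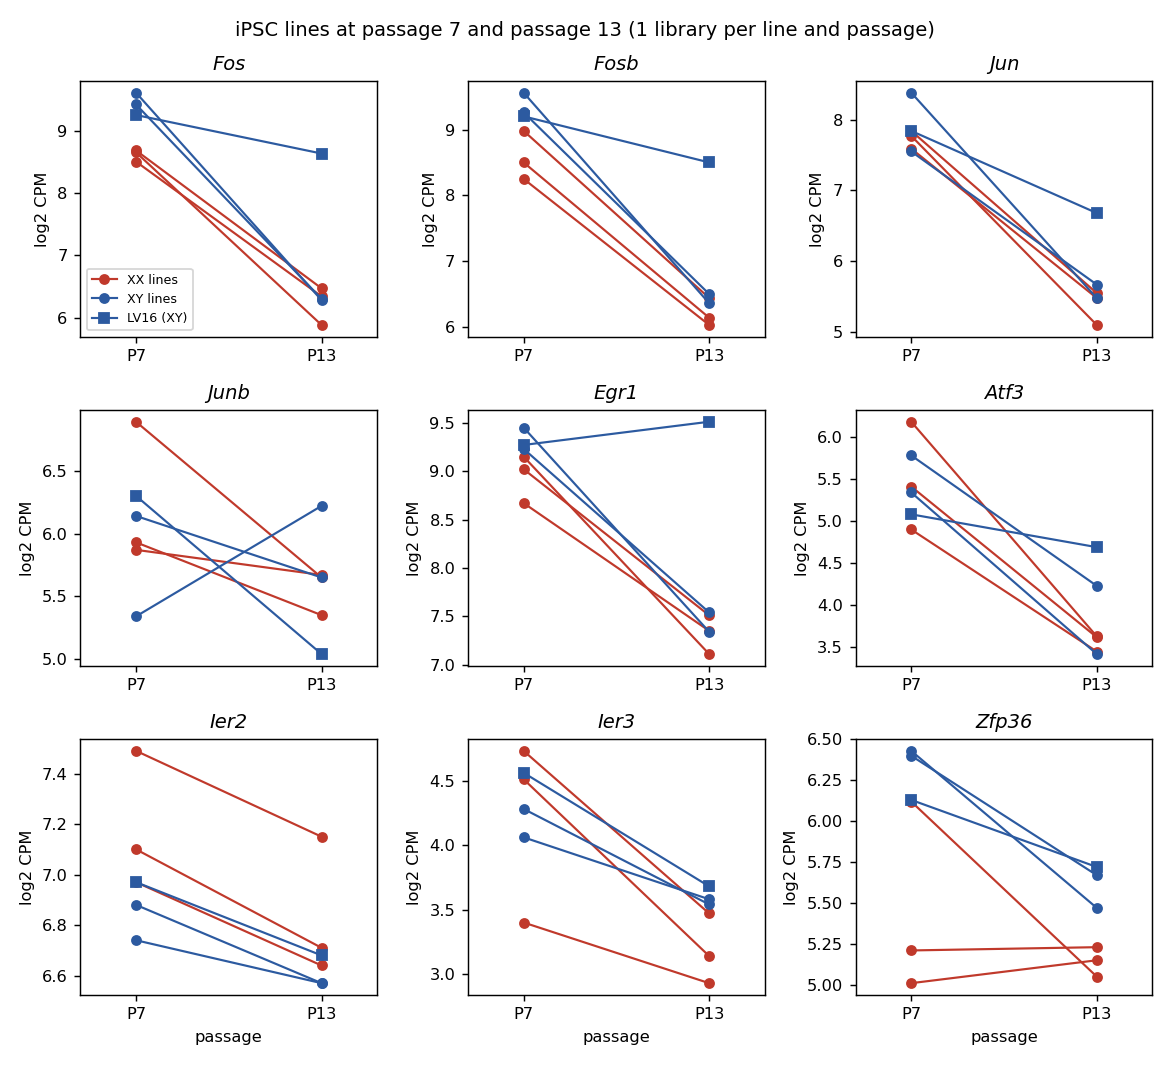
Log2 CPM of each immediate-early gene at passage 7 and passage 13 (1 point per line, lines join the same cell line; red XX, blue XY, squares LV16). Fos, Fosb and Egr1 are lower at passage 13 in the 5 other lines, while in LV16 Fos goes from 9.26 to 8.64 and Egr1 from 9.27 to 9.51.

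Taken separately, 6 members fell in the XX lines, against 4.68% of genes called lower and 4.32% higher, and 5 fell in the XY lines, against 5.82% lower and 7.23% higher. The median member change was -1.63 log2 in XX and -1.19 in XY lines. Fos fell 5.25-fold in XX lines (adjusted p = 0.00896) and 5.14-fold in XY lines (0.00499), Fosb 5.18-fold (0.00687) and 4.66-fold (0.0046), and Jun 5.12-fold (0.00141) and 3.95-fold (0.00135). These calls were kept whichever library was left out, and without LV16 at passage 13 the XY change was -3.14 log2 for Fos and -2.91 for Fosb. Atf3 fell 3.8-fold in XX lines (0.00687) and 2.44-fold in XY lines (0.0201), the latter call being lost without LV4 or LV8 at either passage (adjusted p of 0.0635 to 0.0881).

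Egr1 fell 3.09-fold in XX lines (adjusted p = 0.0225), a call lost without LV20 or LV22 at passage 7 or LV20 or LV21 at passage 13 (adjusted p of 0.0506 to 0.0703). Its change of -1.19 ± 0.38 log2 in XY lines (SE, adjusted p = 0.0546) did not pass. It passed with the cell line as a block (adjusted p = 0.0388) and without LV16 at passage 13 (-1.88, adjusted p = 2.17e-05). Ier3 fell 2.05-fold in XX lines (adjusted p = 0.0393), a call that held without LV21 at passage 7 and was lost without any other XX library (adjusted p of 0.07 to 0.172). Zfp36 fell 1.63-fold in XY lines (adjusted p = 0.0453), a call lost without any 1 of the 6 libraries (adjusted p of 0.0535 to 0.159). Its XX change of -0.3 ± 0.21 became 0.03 without LV21 at passage 7. Ier2 passed in XX lines with the line as a block (-0.35, adjusted p = 0.0233, against 0.136 without the block) and without LV21 at passage 13 (-0.52, 0.0378).

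The passage changes of XX and XY lines could not be shown to differ. The test of the difference called 0 of 13978 genes in either direction (0% higher, 0% lower), also with voom on recovered reads, with 1242 genes at an unadjusted p under 0.05 and no member among them. The difference was -0.64 ± 0.46 log2 for Atf3 (SE, adjusted p = 0.683) and 0.4 ± 0.3 for Zfp36 (SE, adjusted p = 0.716). The median of the 9 differences was -0.33.

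At passage 13, 13.1% of all genes tested were called higher and 12.7% lower. Fibroblast and feeder markers moved with passage too, upwards. Of 20 markers 18 were called higher and none lower (median 1.4 log2), led by the collagen Col3a1, which rose 4.65-fold (limma, adjusted p = 0.000209). Their summed level was 505 to 780.6 CPM in the 6 libraries of passage 7 and 882.4 to 2378 CPM in those of passage 13. LV16 at passage 13, with high Fos, held 902.7 CPM, and LV21 at passage 13, with low Fos, held 882.4 CPM. Trophoblast markers summed to 271.5 to 405.9 CPM at passage 7 and to 160.1 to 256.5 CPM at passage 13, without overlap, and of 6 tested 2 fell, the keratin genes Krt8 (2.36-fold, adjusted p = 0.0238) and Krt18 (2.21-fold, 0.00836), and 1 rose. Primitive endoderm markers summed to 533.2 to 667.1 CPM and then to 629.5 to 1013 CPM, with overlap, and 4 of 8 rose and none fell. The 4 were Dab2, Pdgfra, Col4a1 and Sparc, and Pdgfra is also in the fibroblast list. None of the markers of these 3 lists that are in the table was at 0 in every library of an iPSC group. Whether cells with these markers had a part in the fall of the immediate-early genes was not tested.

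**Figure D3:**
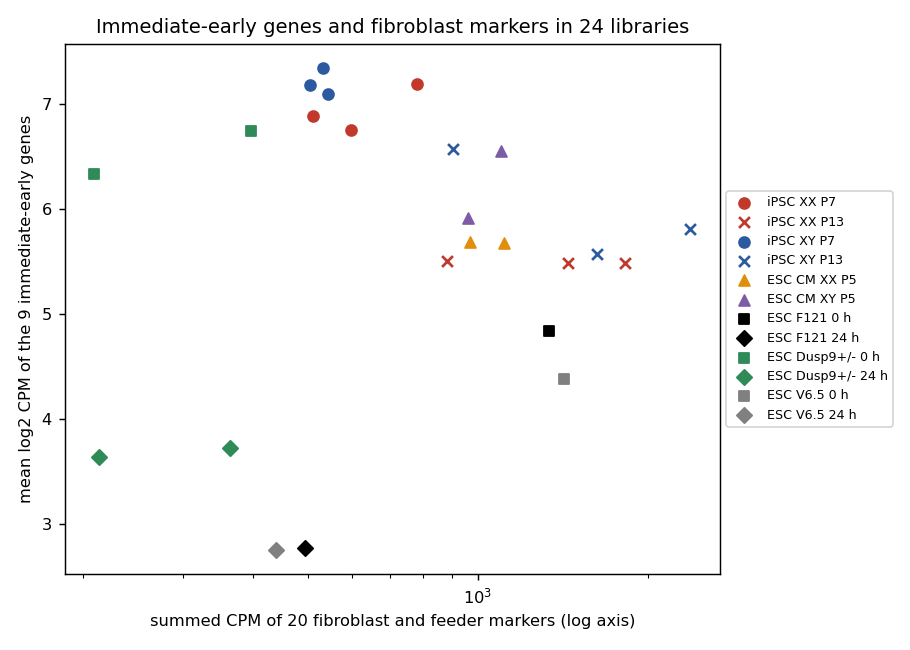
Mean log2 CPM of the 9 immediate-early genes against the summed CPM of 20 fibroblast and feeder markers (log axis), 1 point per library, coloured and shaped by group. Libraries of passage 7 lie at marker sums of 505 to 780.6 CPM and those of passage 13 at 882.4 to 2378 CPM, while the libraries labelled Dusp9+/- lie at 209.5 to 396.5 CPM at both times.

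After 24 h without LIF, 7 of the 9 members fell and none rose, against 15.9% of 14335 genes called lower and 16.8% called higher. Fosb fell 136-fold and Fos 42.4-fold, the largest and second largest decreases among all genes tested. Atf3 fell 7.55-fold, Egr1 4.15-fold, Jun 3.05-fold, Ier3 1.84-fold and Zfp36 1.74-fold. The median member change was -1.61 log2, against 0.02 over all genes.

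Fosb stood at 5.63 log2 CPM in F121, 5.75 in V6.5 and 7.8 and 8.1 in the libraries labelled Dusp9+/- at 0 h. At 24 h it stood at -0.72, -0.46, 0.18 and -0.07, which rest on 5, 6, 12 and 9 reads. Every 24 h library lay far below every 0 h library. The change was -7.09 ± 0.32 log2 (SE, limma, adjusted p = 0.000111), and as the floor adds to every value, it understates the change of a gene this low. Fos stood at 6.02, 5.94, 8.7 and 8.28 at 0 h and at 1.97, 0.79, 2.28 and 2.27 at 24 h, again with no overlap. Its change was -5.41 ± 0.34 (SE, limma, adjusted p = 0.000218).

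Atf3 stood at 4.79 in F121, 3.54 in V6.5 and 5.52 and 5.79 in the libraries labelled Dusp9+/- at 0 h, and at 1.53, 1.54, 2.46 and 2.44 at 24 h. The times did not overlap. Its change was -2.92 ± 0.22 log2 (SE, limma, adjusted p = 0.000432). Egr1 stood at 7.29, 6.11, 8.87 and 8.55 at 0 h and at 6.33, 4.8, 5.8 and 5.67 at 24 h. Here F121 at 24 h lay above V6.5 at 0 h, so the times overlapped although each line's own value was lower at 24 h in F121 and V6.5. The Egr1 change was -2.05 ± 0.34 (SE, adjusted p = 0.00438).

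Jun stood at 4.28, 3.39, 6.86 and 7.18 at 0 h and at 3.29, 2.85, 4.66 and 4.48 at 24 h, a change of -1.61 ± 0.32 log2 (SE, adjusted p = 0.00876). Zfp36 changed by -0.8 ± 0.09 (SE, adjusted p = 0.00125) and Ier3 by -0.88 ± 0.21 (SE, adjusted p = 0.0177). The Ier3 call was lost without either 24 h library labelled Dusp9+/- (adjusted p = 0.0515 and 0.0546), and calls of the other 6 members were kept whichever library was left out. Junb did not pass (-0.41 ± 0.44, SE, adjusted p = 0.501). It went from 2.96 to 1.57 in F121 and from 2.4 to 3.04 in V6.5. Ier2 did not pass either (-0.01 ± 0.26, SE, adjusted p = 0.976), at 5.27 and 5.09 in F121 and 5.51 and 6.33 in V6.5 at 0 h and 24 h. Both genes were lower at 24 h in F121 and higher in V6.5.

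**Figure D4:**
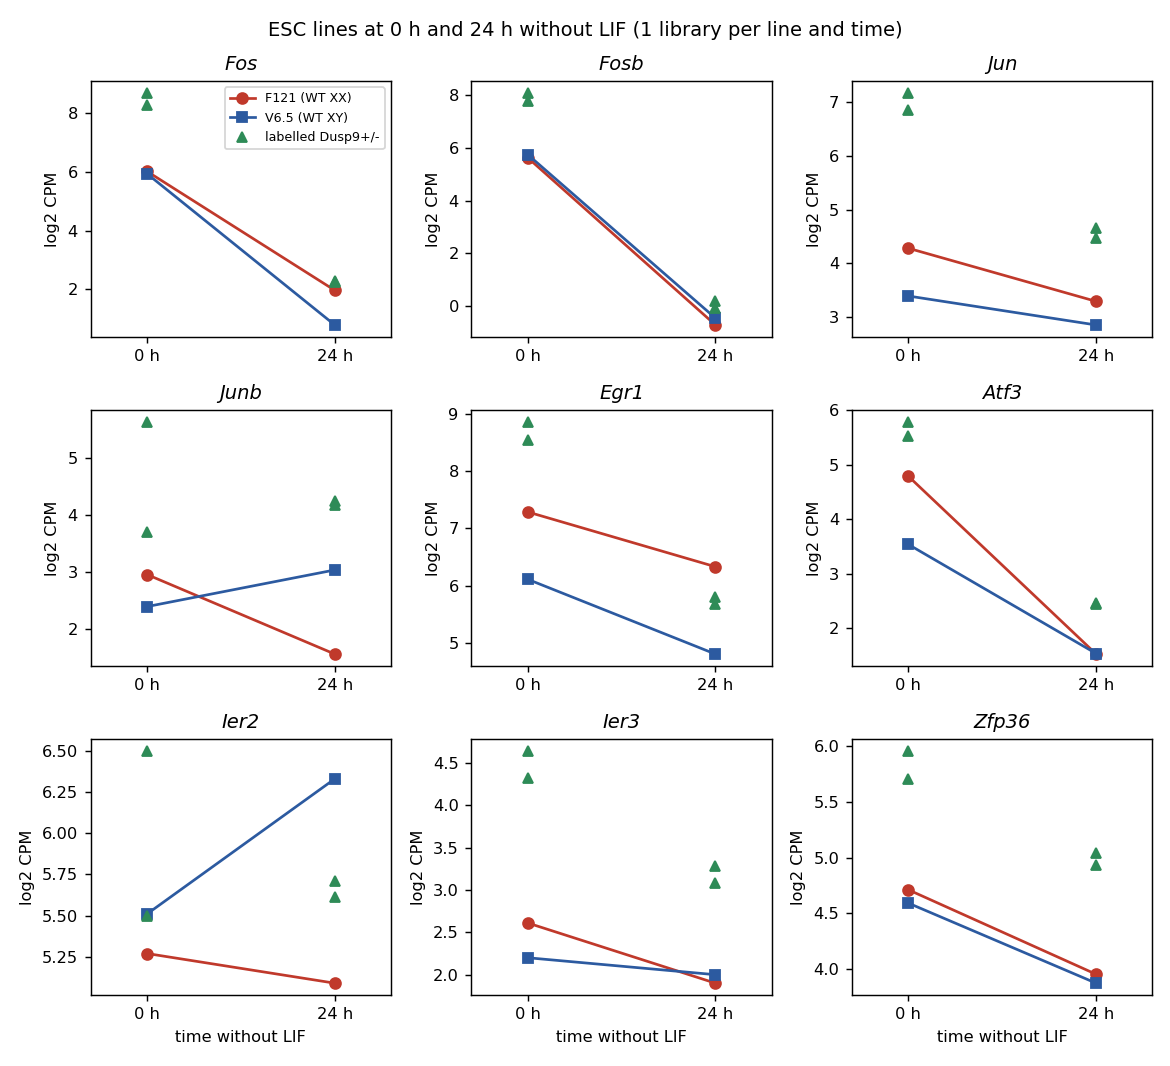
Log2 CPM of each immediate-early gene at 0 h and 24 h without LIF (1 point per library; red circles F121, blue squares V6.5, green triangles the libraries labelled Dusp9+/-, not joined because clone numbers may not match between times). Fosb falls from between 5.63 and 8.1 to between -0.72 and 0.18, while Ier2 is higher at 24 h in V6.5 and lower in F121.

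The pluripotency markers served as a check of the withdrawal, and 5 of 10 fell and 1 rose, with the LIF-responsive factor Klf4 lower 6.46-fold (limma, adjusted p = 0.000638). Fibroblast markers fell as well, 10 of 19 tested, and none rose, against 15.9% of all genes called lower and 16.8% higher. Their summed level went from 1339 to 495.3 CPM in F121 and from 1420 to 439.3 in V6.5, but lay at 209.5 and 396.5 CPM at 0 h and 363.6 and 213.7 at 24 h in the libraries labelled Dusp9+/-. Primitive endoderm markers fell in 3 of 7 tested and rose in none, led by Lama1, a laminin gene (4.56-fold lower, adjusted p = 0.000432). Pdgfra, which is in both lists, was among the 3. The endoderm sums went from 970.6 to 543.1 CPM in F121 and from 852.1 to 358 CPM in V6.5, and lay at 459.7 to 606.8 CPM at 0 h and 540.2 to 615.7 CPM at 24 h in the libraries labelled Dusp9+/-. Of 6 trophoblast markers 1 fell, near the share of all genes, and none rose. Their sums at 0 h and 24 h were 119.9 and 89.64 CPM in F121 and 110.4 and 49.73 CPM in V6.5. In the libraries labelled Dusp9+/- they were 298.3 to 491.2 and 474.3 to 495.3 CPM. Lum and Elf5 were at 0 in V6.5 at 24 h. Whether cells with these markers had a part in the fall of the immediate-early genes was not tested.

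In the libraries labelled Dusp9+/- at 0 h, 6 members were higher than in F121 and none lower, against 4.81% of 14335 genes called higher and 4.1% lower. Jun was 6.7-fold higher, Fos 5.54-fold, Fosb 5.02-fold, Ier3 3.66-fold, Egr1 2.67-fold and Zfp36 2.18-fold. The median member difference was 1.71 log2, against -0.01 over all genes. F121 is 1 library here, and the fit (2 residual degrees of freedom) assumes that it varies as the clones do.

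The Jun values behind this, 6.86 and 7.18 in the libraries labelled Dusp9+/- against 4.28 in F121 and 3.39 in V6.5, gave a difference from F121 of 2.74 ± 0.19 log2 (SE, limma, adjusted p = 0.0127). Both clones also stood above V6.5, the other WT line, for Fos, Fosb, Egr1, Atf3, Ier3, Zfp36 and Junb. For Ier2 they read 5.5 and 6.5 against 5.51 in V6.5. The share of all genes above V6.5 in both clones is not given here, and V6.5 also differs from them in sex and strain. The Fos difference from F121 was 2.47 ± 0.21 (SE, adjusted p = 0.0136), the Fosb difference 2.33 ± 0.23 (0.0161) and the Egr1 difference 1.42 ± 0.16 (0.0173). Ier3 read 4.32 and 4.64 against 2.61 in F121, a difference of 1.87 ± 0.24 (SE, adjusted p = 0.0212). Zfp36 read 5.71 and 5.96 against 4.71, a difference of 1.12 ± 0.17 (SE, adjusted p = 0.0246). All 6 calls were kept without either clone library, where the spread comes from the clone libraries at 24 h alone. With no filter on low values 4 were called, Ier3 and Zfp36 being lost. With genotype plus time as terms, which averages the genotype difference over both times, 5 were called, Fos (1.39) and Egr1 (0.41) being lost and Junb gained.

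Junb (1.71 ± 0.7 log2, SE, adjusted p = 0.163), Atf3 (0.87 ± 0.21, 0.0561) and Ier2 (0.73 ± 0.37, 0.239) did not pass. The clone libraries differed from each other for Junb, at 3.71 and 5.63, and for Ier2, at 5.5 and 6.5. The library of clone 1 was the lower for both. Leaving it out sets 1 clone library against 1 of F121, with the spread of the 24 h clone libraries assumed to hold, and then Junb (2.67, adjusted p = 0.0139), Ier2 (1.24, 0.0163) and Atf3 (1.0, 0.0457) were under the threshold. Those values rest on the clone that differs more from F121 in all 3 genes.

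At 24 h 2 members were called higher and none lower. They were Jun, 2.44-fold higher (1.28 ± 0.19 log2, SE, limma, adjusted p = 0.0422), and Zfp36, 2.05-fold higher (1.04 ± 0.17, 0.0454), against 1.57% of genes called higher and 0.984% lower. Both calls were lost without either clone library (adjusted p of 0.0973 to 0.199), with voom on recovered reads, with log2(CPM + 5) and with no filter on low values. In contrast, 6 members were called with only the libraries of this time, and 5 with genotype plus time. These settings also called more of all genes, 2049 and 1904, against 366 with 6 means of genotype and time. Fos differed by 0.31 ± 0.21 (SE, adjusted p = 0.394), Junb by 2.64 ± 0.7 (0.0952) and Ier3 by 1.27 ± 0.24 (0.0554). Egr1 lay below F121 at this time, at 5.8 and 5.67 against 6.33, a difference of -0.6 ± 0.16 (SE, adjusted p = 0.095), and at 0.41 with genotype plus time.

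Whether the 24 h change of the clones differed from that of F121 was tested as an interaction. It called 0 of 14335 genes (0% higher, 0% lower) with limma and 0 with voom, with 1766 genes at an unadjusted p under 0.05. Members among the latter were Fos (-2.16 ± 0.29 log2, SE, adjusted p = 0.173), Egr1 (-2.02 ± 0.22, 0.115), Jun (-1.46 ± 0.27, 0.212) and Fosb (-1.55 ± 0.33, 0.233). Egr1 passed without clone 2 at 0 h (-1.86, adjusted p = 0.0484). With the clone as a block and the clone numbers crossed at 24 h, a pairing chosen after the data were seen, these 4 members and 754 genes were called, and with the numbers as labelled 0 members and 0 genes. The call thus depends on which libraries are paired.

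Markers of other cells differed between the same groups. Of all genes 4.81% were called higher and 4.1% lower at 0 h, and 1.57% and 0.984% at 24 h. Primitive endoderm markers were lower in the libraries labelled Dusp9+/- at 0 h in 2 of 7 tested genes and higher in none, with sums of 459.7 to 606.8 CPM against 970.6 in F121. Fibroblast markers were lower in these libraries at 0 h in 10 of 19 tested genes and higher in none, with sums of 209.5 and 396.5 CPM against 1339 in F121 and 1420 in V6.5. Of 6 trophoblast markers tested 3 were higher and none lower, led by Hand1 (3.58 ± 0.35 log2, SE, limma, adjusted p = 0.015), and the trophoblast markers summed to 298.3 and 491.2 CPM against 119.9 in F121 and 110.4 in V6.5. At 24 h 4 of these 6 were higher, with sums of 474.3 and 495.3 CPM against 89.64 in F121, while no fibroblast marker was called. None of the fibroblast or trophoblast markers in the table was at 0 in both clone libraries at either time. Whether cells with these markers had a part in the differences of the immediate-early genes was not tested.

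**Figure D5:**
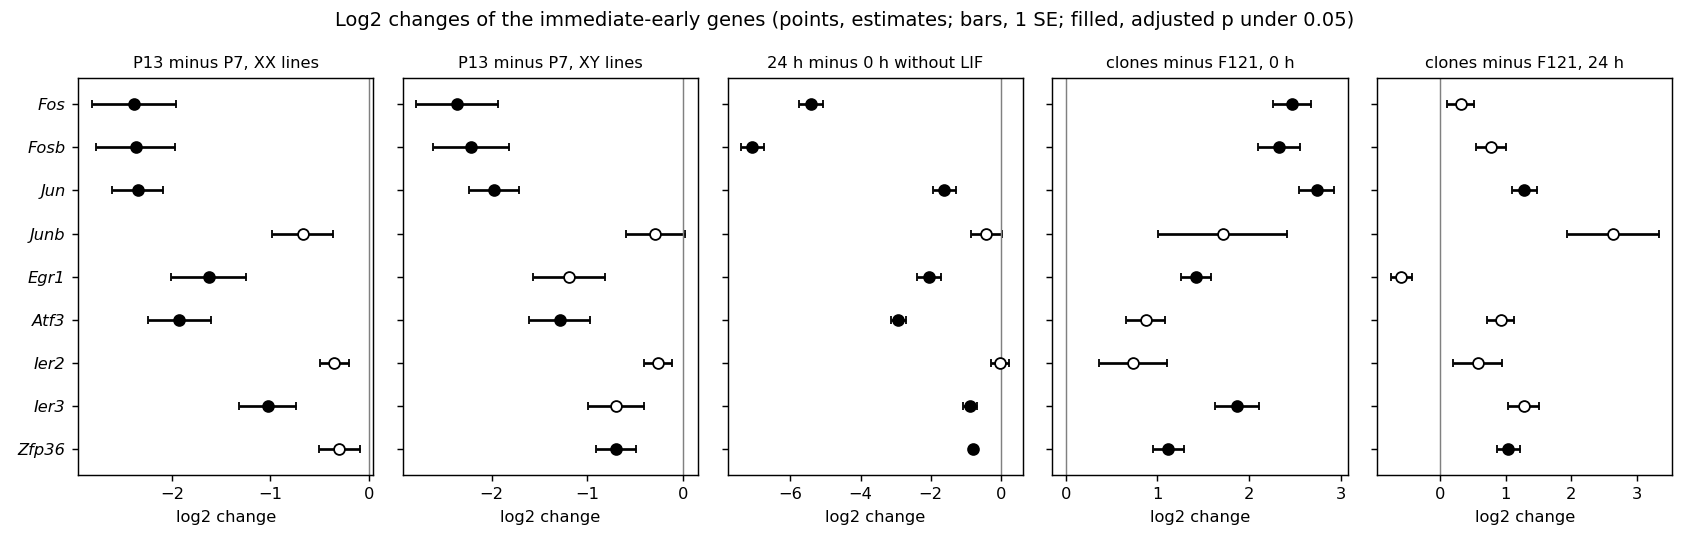
Log2 changes of the 9 members in 5 comparisons (points, limma estimates; bars, 1 SE; filled points, adjusted p under 0.05; each panel has its own axis). The members lie below 0 with passage and, apart from Ier2 (-0.01 ± 0.26, SE), with LIF withdrawal. They lie above 0 in the libraries labelled Dusp9+/- against F121 at 0 h, and at 24 h Egr1 lies below 0 at -0.6.

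Between XX and XY lines few differences passed. At passage 7 Zfp36 was 1.83-fold lower in XX iPSC lines, at 5.21, 6.12 and 5.01 log2 CPM against 6.4, 6.43 and 6.13 (-0.87 ± 0.21, SE, limma, adjusted p = 0.0341), with 1.72% of genes called lower and 3.05% higher. This call was kept without LV21 (-1.21, adjusted p = 0.000166) and lost without any other library of passage 7 (adjusted p of up to 0.177). Fos, Fosb and Egr1 lay below the XY lines in all 3 XX lines at passage 7 without passing, with differences of -0.82 ± 0.43 (SE, adjusted p = 0.297), -0.77 ± 0.4 (0.283) and -0.37 ± 0.38 (0.622). With Zfp36, 4 of the 9 members were parted in this way, and the share of all genes so parted is not given here. Ier2 was 0.32 ± 0.15 log2 higher in XX lines (SE, adjusted p = 0.215) and did not pass. At passage 13 no member was called, against 0.0286% of genes lower and 0% higher, with 376 of 13978 genes at an unadjusted p under 0.05 and 4 genes called by limma and by voom. Fosb (-0.92 ± 0.4), Jun (-0.57 ± 0.26) and Zfp36 (-0.48 ± 0.21) were members at an unadjusted p under 0.05 (SE, adjusted p = 0.999 for each).

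In the 6 WT undifferentiated ESC libraries no member was called between XX and XY with limma or voom, against 4.87% of 14193 genes called higher and 2.32% lower, with 3322 at an unadjusted p under 0.05. F121 and V6.5 also differ in strain, so the difference between them is not one of sex alone. Zfp36 was again lower in XX lines, at 4.83 and 4.8 in CM1 and CM2 against 5.65 and 5.81 in CM3 and CM7, but 4.71 in F121 against 4.59 in V6.5 (-0.57 ± 0.21, SE, adjusted p = 0.147). Fosb stood at 5.81 and 5.89 against 6.6 and 7.65 in the CM lines, and at 5.63 against 5.75 (-0.89 ± 0.3, SE, adjusted p = 0.114). Without F121, which leaves the sex difference to the CM lines, 3 members passed, Fosb (-1.28, adjusted p = 0.0158), Egr1 (-1.0, adjusted p = 0.00338) and Zfp36 (-0.91, adjusted p = 0.00343). Of all genes 1573 were called in that fit, against 1020 with all 6 libraries. Leaving out V6.5 in place of F121 gave the same differences (adjusted p = 0.0111, 0.00198 and 0.00247), since the sex difference then rests on the CM lines alone. The fit without V6.5 called 1682 genes. Without CM7 Atf3 was the 1 member called, higher in XX lines (1.17, adjusted p = 0.0111, against 0.72 and 0.228 with all 6 libraries). ERK feedback genes were called lower in XX ESC lines in 4 of 13 cases and higher in none, led by Etv4, an ETS factor gene (2.38-fold lower, limma, adjusted p = 0.00107).

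The members rose and fell together to different degrees. Over the 24 libraries, which share lines and conditions, Pearson's r was 0.98 between Fos and Fosb, 0.94 between Fos and Egr1 and 0.91 between Jun and Ier3. Junb and Ier2 had an r of 0.89 with each other, and Ier2 had 0.51 with Zfp36 and 0.52 with Egr1. The genes outside the list most like the mean of the members, among 11411 ranked, were Vat1 (r = 0.93), Socs3 (0.929), Egr2 (0.929), Ddah2 (0.928), Fnip1 (0.928), Ccng2 (0.927), Bhlhe40 (0.916) and Btg1 (0.915). Socs3 encodes a feedback inhibitor of LIF signalling, and Egr2 is a relative of Egr1. Egr2 ranged from -0.46 to 4.83 log2 CPM and Socs3 from 2.63 to 7.85.

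Other immediate-early genes did not all follow the members. Of 28 such genes 13 fell and 5 rose with passage (median -0.27 log2), against 12.7% and 13.1% of all genes. Egr2 fell 5.1-fold (limma, adjusted p = 0.00148), whereas the orphan nuclear receptors Nr4a2 and Nr4a3 rose 3.67-fold (0.000462) and 2.55-fold (0.00666). After LIF withdrawal 16 of 27 fell and 1 rose (median -0.52; all genes 15.9% and 16.8%), among them Egr2 (7.49-fold lower, adjusted p = 0.00785) and also Nr4a3 (4.9-fold lower, 0.00844) and Nr4a2 (3.32-fold lower, 0.00569). In the libraries labelled Dusp9+/- at 0 h, 9 of 27 were higher and 1 lower (median 0.58; all genes 4.81% and 4.1%), led by Egr2 (5.58-fold higher, adjusted p = 0.0252) and Rhob, a small GTPase gene (3.44-fold higher, 0.0199). Nr4a2 and Nr4a3 thus went against the members with passage and with them at 24 h.

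Of the AP-1 subunit genes outside the list, Fosl1, Fosl2 and Jdp2 were in the table. None of these 3 was called with passage or in the clone comparisons, and at 24 h Fosl2 fell 2.67-fold (limma, adjusted p = 0.00344) and Jdp2 2.11-fold (0.0133). Among genes of ERK feedback, changes were in both directions. Dusp1, an immediate-early phosphatase of the MAP kinases, fell 2.27-fold with passage (adjusted p = 0.000331) and 2.91-fold at 24 h (0.00147), and was 3.09-fold higher in the libraries labelled Dusp9+/- at 0 h (0.0127). Dusp6 and Spry4, inhibitors induced by ERK, rose 2.26-fold (0.000996) and 2.42-fold (0.000361) at 24 h, when Fos and Fosb fell. Dusp6 was 2.49-fold higher in the libraries labelled Dusp9+/- at 0 h (0.0173). Of the 13 ERK feedback genes 4 rose and 3 fell with passage, against 13.1% and 12.7% of all genes. At 24 h 4 of 12 rose and 1 fell, against 16.8% and 15.9%, and 5 of 12 were higher and 1 lower in those libraries at 0 h, against 4.81% and 4.1%.

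Of 18 genes of upstream kinases and factors, among them Srf, Elk1 and Creb1, 3 rose and 5 fell with passage, against 13.1% and 12.7% of all genes, led by the ternary complex factor Elk3, which rose 2.19-fold (limma, adjusted p = 0.000742). At 24 h 2 rose and 1 fell, against 16.8% and 15.9% of all genes, with Creb1 1.42-fold higher (0.00183), and between the libraries labelled Dusp9+/- and F121 none was called at either time. Of 15 heat shock and stress genes 2 rose and 3 fell with passage, near the 13.1% and 12.7% of all genes, and the stress-response gene Ddit4 fell 3.76-fold (4.31e-05) and the factor Ddit3 2.28-fold (0.00264). Ddit4 was 4.56-fold higher in the libraries labelled Dusp9+/- at 0 h (0.00784). There 1 of 14 such genes was higher and 1 lower, near the 4.81% and 4.1% of all genes.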

How the data were processed

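Per the labels' protocols, TRIzol RNA went into stranded poly(A) libraries sequenced from one end. STAR 2.5.3a, featureCounts, edgeR, GRCm38 and mm10 are named, without roles, per the submitters' processing notes. The authors deposited log2 CPM (a unit other than raw counts) for 16687 genes and 24 libraries. Of the 52 samples 32 are RNA samples, 8 of them technical repeats in the withdrawal experiment, where the table has 1 column per line and time, and whether repeats were combined is not stated. The 20 chromatin samples were not analysed here. Each column is a floor of 0.183 CPM plus multiples of 1 read; 100.0% of recovered reads were whole to 0.01 read (largest deviation 0.00041), and the recovered reads were also tested with voom.

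Tests used limma 3.58.1 (R 4.3.3; eBayes with trend, two-sided) on the deposited values of genes averaging 1 CPM or more, adjusted by Benjamini-Hochberg over all of them, and called under 0.05. The 12 iPSC libraries had 4 group means (8 residual degrees of freedom). The withdrawal change had genotype as a covariate (4), clone comparisons 6 means of genotype and time (2), and WT ESCs sex and experiment (3). P-values of the iPSC fits measure the spread between lines. In the WT ESC fit they rest on that spread in the CM lines and on how the sex difference varies between the experiments. Those of the clone comparisons rest on the spread between the clone libraries of each time alone. Those of the withdrawal change rest on that spread and on differences in change between genotypes. The same lines were sampled at both passages and times, so the line pairs them by design. Deviations of the same line correlated weakly in iPSC lines (-0.04 to 0.11 over 13978 genes). In the clones the correlation was negative (-0.36 over 14335 genes), and clone numbers may not match between the times. The fits were tested on simulated data. Named genes are the 9 members, up to 4 called genes of each list and comparison with the largest change, and the 8 genes most correlated with the member mean. Members and lists were chosen with earlier results of these data known. Promoter sequences come from RefSeq, GRCm38.p6. Alternatives were the offset, the filter, median centring, voom, the libraries of a comparison alone, the replicate block and leaving out libraries. Leaving out LV16 and crossing the clone numbers were added after the data were seen.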

Additional observations from a re-analysis of the deposited data

Results flagged for a closer look

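In 45 sets of lines (9 members, each in the iPSC lines of a passage, the CM lines, and the withdrawal lines of a time), 7 held a library whose gap to the nearest other was large against the range of the set. Chance gives this in about 1 of 20 sets of independent values from like libraries. The 45 sets share libraries, hold correlated genes and mix XX with XY lines or clones with WT lines. The count of 7 therefore cannot be judged against that rate, and no cause was tested.

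LV16 at passage 13 accounted for 4 of them, each time as the highest of 6 lines. It read 8.64 log2 CPM for Fos against 5.88 to 6.47 in the other 5 lines, 8.5 for Fosb against 6.03 to 6.5, 6.68 for Jun against 5.1 to 5.67, and 9.51 for Egr1 against 7.11 to 7.54. Over the 9 members its median change from passage 7 was -0.61 log2, against -1.32 to -2.04 in the other lines. At passage 13 LV21 read 7.15 for Ier2 against 6.57 to 6.71. At passage 7 LV8 read 8.38 for Jun against 7.55 to 7.84. Among the CM lines CM3 read 3.82 for Atf3 against 4.92 to 5.14.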

How the results depend on the processing

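Of 979 repeats of member values, 873 kept direction and call, 64 lost and 31 gained the call, and 11 changed sign; the cause was not tested. Counts below are of members, then of all genes. The line as a replicate block, which pairs libraries by design, gave 8 and 3892 calls with passage, 7 and 1551 in XX lines, 6 and 2096 in XY lines, 0 and 11 for their difference, 7 and 3607 at withdrawal, and 0 and 0 for the clone change difference; beyond Ier2 in XX and Egr1 in XY lines it changed no member's call. With clone numbers crossed, the latter 2 gave 7 and 4493, and 4 and 754. With a comparison's own libraries only, XX passage gave 436 genes, clones at 0 h 510, clones at 24 h 6 and 2049, and sex at passage 7 2 and 428. No filter gave 4 and 200 (clones at 0 h), 0 and 0 (24 h), and 0 and 440 (sex, passage 7). At 24 h log2(CPM + 5) gave 0 and 178, voom 0 and 16, and genotype plus time 5 and 1904, with Egr1 at 0.41. Without LV21 at passage 7 and LV22 at passage 13, the passage difference gave 364 genes, sex at passage 7 1818, and Zfp36 in XX lines 0.03. Without LV16, sex at passage 7 gave 2 and 259, and Junb in XY lines 0.19. Leaving out each library in turn gave 6 to 8 members and 2603 to 4116 genes with passage, 4 to 6 and 174 to 2079 (XX), 3 to 5 and 429 to 2198 (XY), 0 to 145 genes for the difference, 6 to 7 and 3086 to 4158 at withdrawal, 6 to 9 and 1610 to 1953 (clones, 0 h), 0 and 1 to 104 (24 h), 0 to 1 and 0 to 24 (change difference), 0 to 1 and 44 to 1727 (sex, passage 7), and 0 to 3 and 208 to 1682 (ESCs). Zfp36 in XX lines then ranged from -0.52 to 0.03, Junb in XY lines from -0.59 to 0.01, Ier2 at withdrawal from -0.29 to 0.25, and Egr1 between ESC sexes from -1.0 to 0.08. Sex and single-time clone comparisons allow no block. F121 and V6.5 give 1 library a time, and Fosb at 24 h rests on 5 to 12 reads.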
